A study of Mus musculus with 2 samples.

Results

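The epidermal growth factor (EGF) family was followed through 2 single-cell RNA libraries of healing mouse skin, as 7 ligand genes (Areg, Ereg, Hbegf, Tgfa, Epgn, Btc and Nrg1) and 3 receptor genes (Egfr, Erbb2 and Erbb3). These 10 genes were taken by symbol from the 27998 genes of the count matrices, and all 10 were present in both. The ligands are made as membrane-anchored precursors, are cut loose by proteases of the ADAM family and act on the same or nearby cells. They bind receptor tyrosine kinases, which pair with one another and signal through the RAS to ERK cascade. In skin this signalling is known for driving keratinocyte proliferation and migration during wound closure, and in peripheral nerve the neuregulin receptor keeps Schwann cells alive.

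Both libraries came from male wild-type C57BL/6J mice aged 6 to 8 weeks that carried a 1.8 cm full-thickness wound on the back. In TLR9agonist_LW the wound received the oligonucleotide ODN2395, an agonist of the DNA sensor TLR9, at 4 µg on days 0, 3 and 6. In WT_LW it received PBS according to the sample labels, whereas a figure legend of the study names a control oligonucleotide. A 5 mm punch of the wound centre was taken 2 days after the scab fell, and cells of several mice (6 per group in one place of the study, 5 in another) were pooled into 1 library per group. With 1 pooled library per group no test between the groups was possible, and every difference given here is a difference between these 2 libraries. All intervals are 95% intervals of counting error only.

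WT_LW held 12800 barcodes and 99374045 unique molecular identifiers (UMIs, each counting 1 captured RNA molecule), and TLR9agonist_LW held 13751 barcodes and 132339022 UMIs. After filtering and removal of predicted doublets, 10395 and 11811 cells were used, with a median of 5519 and 6080 UMIs per cell. The libraries shared 47 barcodes, 33 of them among the cells used. Cells were clustered and named from marker lists into 10 classes, so each class name stands for cells like that type by their markers. In 8 of the 10 classes every marker on the class's list was highest in that class in both libraries. The exceptions were blood endothelial cells (6 of 7 markers in WT_LW, 5 of 7 in TLR9agonist_LW) and pericytes or smooth muscle cells (6 of 7 in both). Clusters were formed from variable genes other than the EGF family and its pathway list. Areg was still among the leading genes of some, and levels by class are given as a description. Sub-classes cover only part of a class, since sub-clusters that met too few markers, or had few UMIs and no leading gene of their own, were left unnamed. These held 44.1% of WT_LW and 51.4% of TLR9agonist_LW fibroblasts, 26.5% and 19.9% of macrophages or dendritic cells, and 13.6% and 17.3% of keratinocytes. Their cells count in the class but in no sub-class below, so every order of sub-classes is among the named ones.

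The make-up of the libraries differed, which bears on every value summed over all cells. T or innate lymphoid cells made up 33.7% of WT_LW cells and 32.0% of TLR9agonist_LW cells, but the γδT17-like cells among them (an IL-17-making γδ T cell type, named from Il17a, Il23r and related markers) made up 5.18% and 15.2%. Fibroblasts made up 7.37% and 18.0%, and keratinocytes 5.31% and 9.60%. Macrophages or dendritic cells made up 17.7% and 11.8%, and Schwann cells 7.58% and 4.12%. Whether these shares reflect the tissue or which cells were captured cannot be told apart. Levels are given as CPM, the UMIs of a gene per 1000000 UMIs of a class. They are not divided by gene length and are therefore not compared between genes. A gene was called higher or lower where its ratio, TLR9agonist_LW over WT_LW, was at least 2-fold relative to the median gene of the same class. Genes with under 20 UMIs in both libraries of a class together were left out. The median gene lay below 0 in each class, between -0.58 (keratinocytes) and -0.08 (mast cells) on the log2 scale, and -0.39 over all cells. Every log2 ratio below is relative to this median unless stated otherwise.

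Epgn, Ereg, Areg and Btc, in that order, lie side by side on chromosome 5 (GRCm38) and are the only protein-coding genes within 375531 bases. Epgn spans chr5:91027464-91035215, Ereg chr5:91074622-91093646 and Areg chr5:91139599-91148432, all on the plus strand, and Btc spans chr5:91357261-91402994 on the minus strand. Over all cells Areg, Ereg and Epgn were higher, as the values below show, and Btc, which was highest in Schwann cells, was not. That contrast does not hold for each class. In keratinocytes Btc stood at 1.69 and 2.18 CPM, on 17 and 59 UMIs, where the median gene lay at -0.58. The sequence just upstream of the start site is shown for Areg, Epgn and Btc, from RefSeq (GRCm38.p6). It runs 5′ to 3′ on the strand of the gene, at chr5:91139349-91139598 (plus), chr5:91027267-91027463 (plus) and chr5:91402995-91403244 (minus). Capitals mark matches to the motifs searched.
Areg: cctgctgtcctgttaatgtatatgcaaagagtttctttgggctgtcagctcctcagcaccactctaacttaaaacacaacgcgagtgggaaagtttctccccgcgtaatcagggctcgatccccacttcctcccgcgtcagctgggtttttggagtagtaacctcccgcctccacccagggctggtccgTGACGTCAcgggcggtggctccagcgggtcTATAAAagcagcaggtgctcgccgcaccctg
Epgn: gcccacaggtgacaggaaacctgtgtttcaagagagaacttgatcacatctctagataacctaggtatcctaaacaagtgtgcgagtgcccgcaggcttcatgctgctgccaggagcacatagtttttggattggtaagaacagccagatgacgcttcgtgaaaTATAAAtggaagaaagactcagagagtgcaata
Btc: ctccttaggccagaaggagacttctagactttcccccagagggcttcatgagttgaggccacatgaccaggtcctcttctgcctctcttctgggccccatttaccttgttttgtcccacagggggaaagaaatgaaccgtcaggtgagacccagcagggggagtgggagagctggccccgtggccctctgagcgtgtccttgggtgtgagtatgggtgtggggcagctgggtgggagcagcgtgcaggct
Of the 10 members, 6 had a promoter entry (Areg, Tgfa, Epgn, Btc, Egfr and Erbb2). A cyclic AMP response element, TGACGTCA, was found in Areg alone among these 6, starting 61 bases before the first base of the gene as given above, and is held by 1.55% of 32851 promoters in windows of 250 bases. A TATA box, TATAAA, was found in Areg, starting 31 bases before that base, and in Epgn, starting 33 bases before it, and is held by 12.4% of promoters. An AP-1 element, TGANTCA, and the NF-kB motif are held by 6.75% and 7.25% of promoters and were found in 0 of the 6. Both strands were searched. A match describes these letters only.

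Over all cells, Areg, Ereg, Tgfa, Epgn and Egfr were at least 2-fold higher in TLR9agonist_LW, 5 of the 10 members, against 8.03% of all genes tested. None of the 10 was at least 2-fold lower, against 5.35% of all genes. Areg, which encodes amphiregulin, a ligand of EGFR, was counted 9442 times in WT_LW and 83357 times in TLR9agonist_LW, or 110 and 750 CPM, a log2 ratio of 3.15 (3.12 to 3.18). Epgn, which encodes epigen, another ligand of EGFR, stood at 13.0 and 53.1 CPM, with a log2 ratio of 2.41 (2.32 to 2.51). Ereg, the gene of epiregulin, stood at 6.64 and 23.8 CPM, a ratio of 2.23 (2.09 to 2.36), and Tgfa, the gene of transforming growth factor alpha, at 4.06 and 14.4 CPM, a ratio of 2.21 (2.04 to 2.38). These 4 EGFR ligands were all well past 2-fold over all cells, and the receptor Egfr was closer to it, from 18.0 to 32.8 CPM, a ratio of 1.25 (1.16 to 1.34) that was 0.86 without centring.

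The other 5 members did not pass 2-fold over all cells. Nrg1, which encodes neuregulin 1, a ligand of ERBB3 and ERBB4, lay just under the threshold at 22.4 and 34.1 CPM, with a log2 ratio of 0.99 (0.91 to 1.07). Hbegf, the gene of heparin-binding EGF-like growth factor, stood at 115 and 102 CPM, a ratio of 0.22 (0.18 to 0.26) that was -0.16 without centring on the median gene. Btc, the gene of betacellulin, had the lowest value of the 10, 4.04 and 1.67 CPM, a ratio of -0.88 (-1.15 to -0.62) that was -1.27 without centring. Erbb2, a receptor without a ligand of its own that pairs with the others, stood at 13.0 and 9.76 CPM with a ratio of -0.03 (-0.15 to 0.10). Erbb3, which binds neuregulins and has little kinase activity of its own, stood at 33.5 and 24.2 CPM with a ratio of -0.09 (-0.16 to -0.01).

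**Figure D1:**
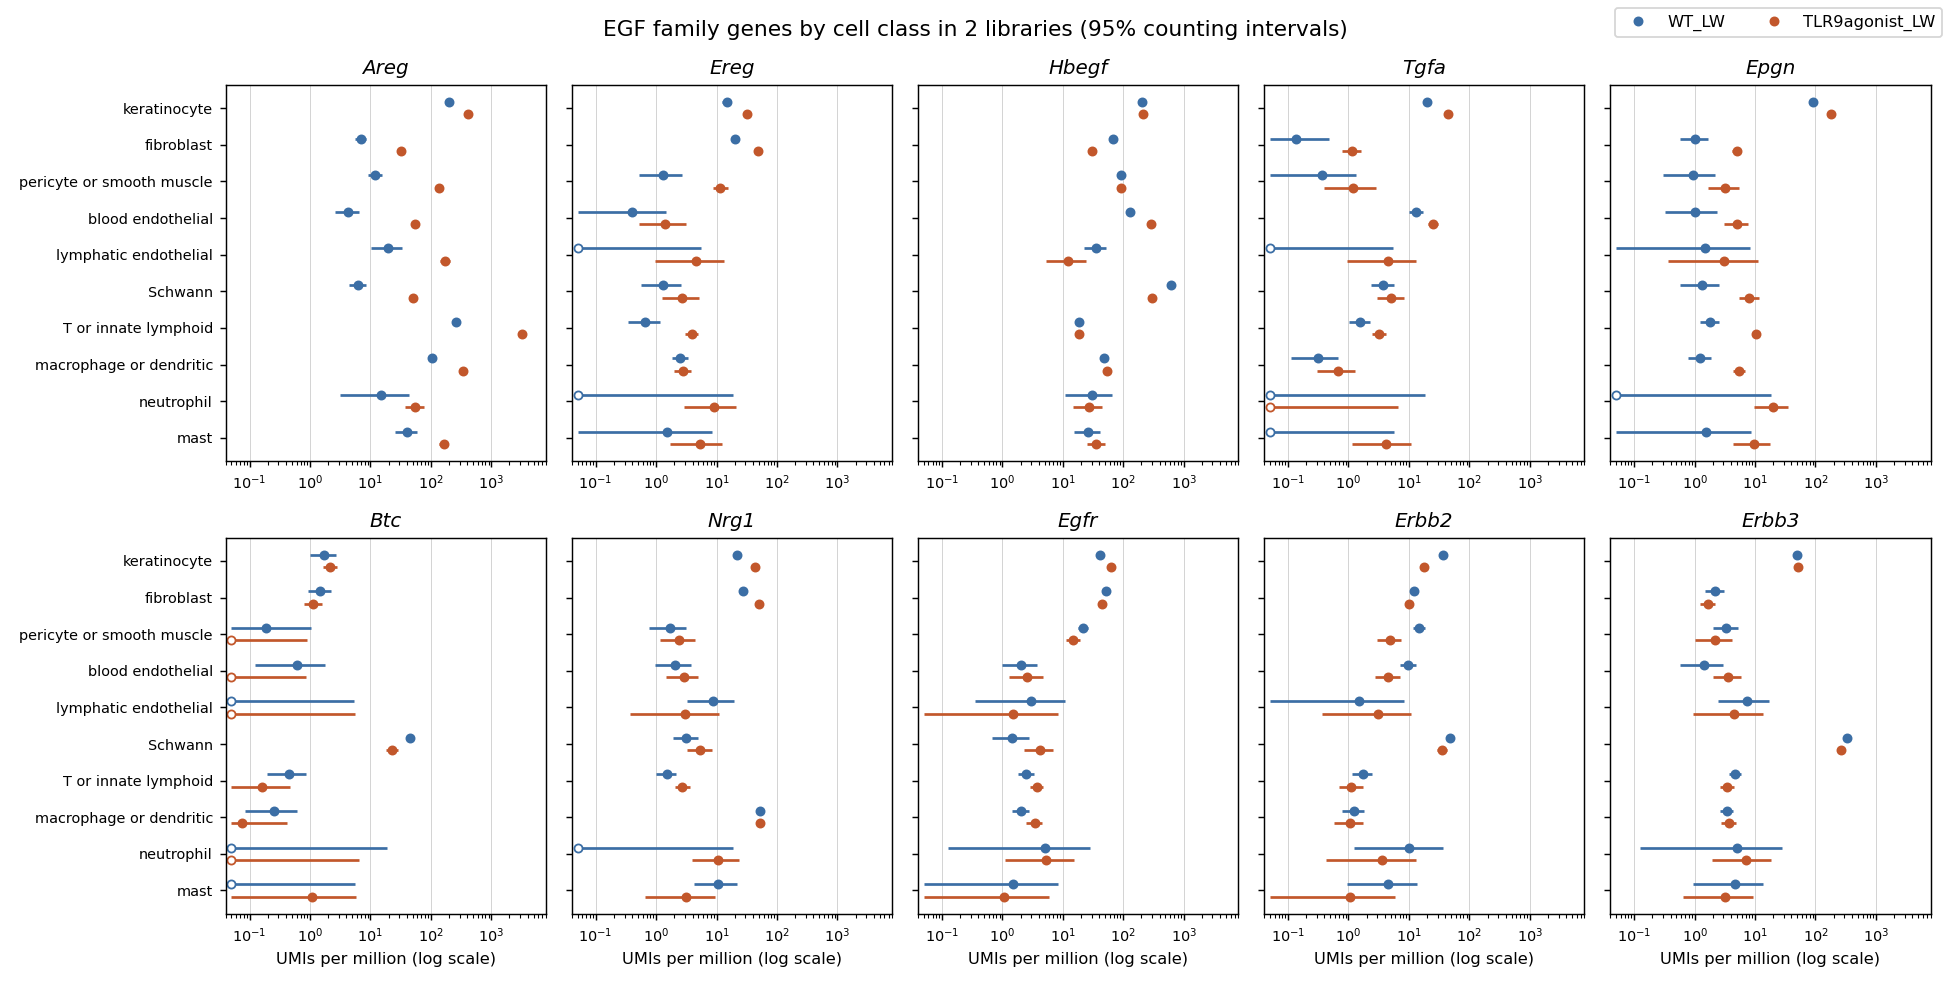
Level of each EGF family gene (CPM, log axis) in 10 cell classes, WT_LW in blue and TLR9agonist_LW in orange, with 95% counting intervals as lines; open circles at the left edge stand for 0 UMIs. Each gene has its own high classes: T or innate lymphoid cells for Areg, keratinocytes for Epgn and Tgfa, and Schwann cells for Btc, Hbegf, Erbb2 and Erbb3.

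Areg was highest in T or innate lymphoid cells in both libraries, at 256 CPM (249 to 263) in WT_LW and 3275 (3249 to 3301) in TLR9agonist_LW, and its log2 ratio there was 3.98 (3.93 to 4.02). The second class was keratinocytes with 197 and 416 CPM, then macrophages or dendritic cells with 103 and 338. The intervals of these 3 classes and of the class that follows did not overlap in either library. Mast and lymphatic endothelial cells followed, with overlapping intervals in both libraries. In TLR9agonist_LW the lymphatic endothelial value of 173 CPM rested on 1 cell with 100 of the 114 UMIs, and it was 16.6 CPM without cells holding at least 2 of 8 T cell markers. The lowest class was blood endothelial cells in WT_LW (4.25 CPM) and fibroblasts in TLR9agonist_LW (32.5). The spread between the first and second class was thus small in WT_LW and large in TLR9agonist_LW. T or innate lymphoid cells held 49.1% of all Areg UMIs in WT_LW and 73.8% in TLR9agonist_LW, keratinocytes held 21% and 13.5%, and macrophages or dendritic cells 21.1% and 5.46%.

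Within the T or innate lymphoid class, γδT17-like cells had the highest Areg level in both libraries, 968 CPM (928 to 1010) over 538 cells and 6989 (6931 to 7047) over 1793 cells, a log2 ratio of 3.23 (3.17 to 3.29). They held 23.2% of all Areg UMIs in WT_LW and 67.3% in TLR9agonist_LW. Regulatory T cells were second, with 684 and 2093 CPM and a ratio of 1.81 (1.70 to 1.92). CD4 helper T cells stood at 94.5 and 431 CPM, a ratio of 2.46 (2.33 to 2.59), but few of them carried it: the median cell had 0 Areg UMIs in both libraries, the highest 46 and 240, and 11.2% and 29.0% of the cells had any. CD8 T cells were the exception, at 87.6 and 68.7 CPM and a ratio of -0.16 (-0.59 to 0.26). Areg was thus called higher in γδT17-like, regulatory and CD4 helper T cells, in which 11.4%, 5.37% and 6.55% of all genes were, and not in CD8 T cells. In γδT17-like cells 4 of 8 members tested were called higher and 0 lower, against 10.8% of genes lower, but Areg was the only one of the 8 above 36.7 CPM in either library.

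The number of cells with Areg and the amount per cell both differed in γδT17-like cells. The median cell had 0 Areg UMIs in WT_LW and 6.00 in TLR9agonist_LW, and the highest cell had 116 and 485. At least 1 Areg UMI was seen in 33.3% and 72.6% of the cells. After each cell was thinned to 1500 UMIs, which left out 23 and 22 shallower cells, the shares were 24.7% (21 to 28.6) and 63.1% (60.8 to 65.3). Blood endothelial cells, the class with the lowest Areg level in WT_LW, gave 0.659% and 5.29% after the same thinning (3.25% and 21.4% before it), with median depths of 6048 and 8919.5 UMIs against 4090 and 4395 in γδT17-like cells. The γδT17-like cells fell into 3 sub-clusters. The first, with Bcl2a1a, Npnt, Il17f and Areg itself among its leading genes, held 189 and 1022 cells and had 2065 and 8990 CPM of Areg. The second, led by Cd163l1 and Blk, held 263 and 385 cells with 170 and 1819 CPM, and the third, led by Arl5c and Zbtb16, held 86 and 386 cells with 867 and 5845. Each sub-cluster had more Areg in TLR9agonist_LW, and the order of the 3 was the same in both libraries.

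**Figure D2:**
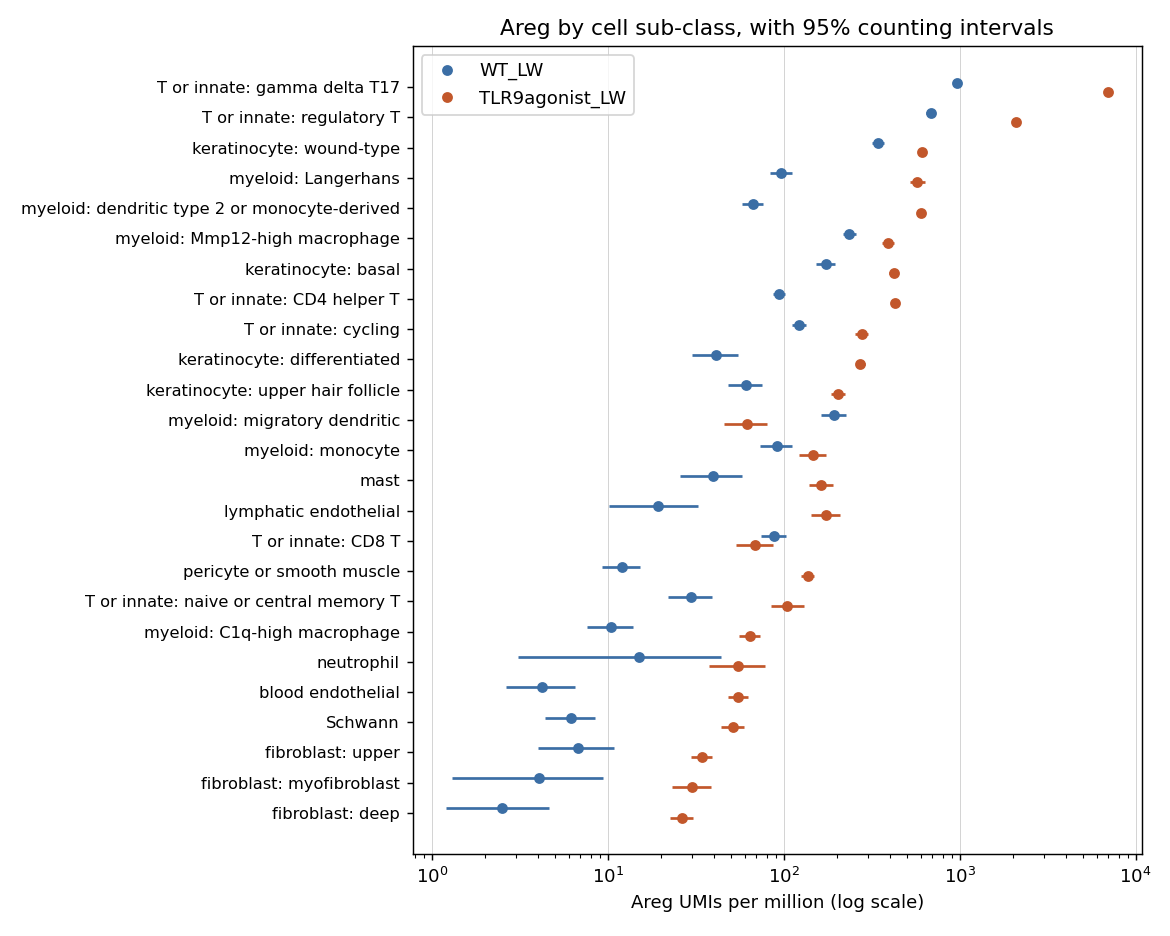
Areg level (CPM within the sub-class, log axis) in each cell sub-class with at least 50 cells in both libraries, WT_LW in blue and TLR9agonist_LW in orange, with 95% counting intervals. γδT17-like cells lead in both libraries (968 and 6989 CPM), and CD8 T cells and migratory dendritic cells are the sub-classes in which the TLR9agonist_LW value is the lower one. In migratory dendritic cells and in C1q-high macrophages, carry-over and expression of Areg cannot be told apart, by the comparison with Il17a in the text.

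Outside γδT17-like cells and keratinocytes, regulatory T cells were the leading source of Areg per UMI among 20 classes compared. Among myeloid cells, Areg stood at 66.6 and 602 CPM in type 2 or monocyte-derived dendritic cells, a log2 ratio of 3.54 (3.32 to 3.76), and at 96.9 and 576 in Langerhans-like cells (140 and 53 cells), a ratio of 2.95 (2.69 to 3.21). Mmp12-high macrophages stood at 236 and 391 CPM, and C1q-high macrophages at 10.4 and 64.0. Migratory dendritic cells went the other way, from 192 to 61.7 CPM, a ratio of -1.38 (-1.87 to -0.92). At least 2 of 8 T cell markers were held by 36.4% and 22.2% of them, and without these cells the level was 262 and 63.6 CPM. Of the migratory dendritic Areg UMIs, 21.1% and 21.2% lay in the cells with T cell markers. By the comparison with Il17a given below, carry-over and expression of Areg cannot be told apart in C1q-high macrophages and migratory dendritic cells. What lies behind the lower value in migratory dendritic cells was not tested. The unnamed myeloid cells stood at 157 and 619 CPM and held 37.3% and 34.3% of the class's Areg UMIs. Many Langerhans-like cells held at least 2 of 8 T cell markers (68.6% and 49.1%), and without them the level was 99.0 and 1085 CPM. In TLR9agonist_LW a single Langerhans-like cell held 200 of the 406 UMIs. When myeloid cells with at least 2 of 8 T cell markers were left out, the level of the macrophage or dendritic class was 104 and 291 CPM, and that of type 2 or monocyte-derived dendritic cells 90.5 and 650.

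Free RNA released by lymphocytes, and T cells captured together with another cell, can add Areg UMIs to other classes. Il17a, a cytokine gene of γδT17-like cells, served as the yardstick: in TLR9agonist_LW it stood in mast cells at 5.04% of its level in T or innate lymphoid cells, and Areg at 4.99%. The same pair was 4.89% and 5.28% in lymphatic endothelial cells, 3.20% and 4.17% in pericytes or smooth muscle cells, 0.784% and 1.69% in blood endothelial cells, and 0.611% and 0.993% in fibroblasts. In WT_LW the pair was 6.96% and 15.5% in mast cells, 2.89% and 7.49% in lymphatic endothelial cells and 0.940% and 2.70% in fibroblasts. It was 2.66% and 4.70% in pericytes or smooth muscle cells, and 1.52% and 1.66% in blood endothelial cells. With Areg at no more than 3 times the Il17a share, it is not read as expression by these classes. The limit of 3 times was not calibrated, and the WT_LW fibroblast pair lay just under it. Carry-over from cells with Areg but no Il17a is not measured this way. The Areg ratio passed 2-fold in each of these classes, as did 12.3% of genes in mast cells, 4.42% in lymphatic endothelial cells and 7.66% in pericytes or smooth muscle cells. Part of this Areg lay in cells with T cell markers. Without cells holding at least 2 of 8 such markers, the TLR9agonist_LW level was 27.1 in place of 55.2 CPM in blood endothelial cells, 88.5 in place of 164 in mast cells and 95.2 in place of 137 in pericytes or smooth muscle cells, but 31.0 in place of 32.5 in fibroblasts. In keratinocytes and in macrophages or dendritic cells Areg stood at 12.7% and 10.3% of the lymphoid level, far above Il17a at 0.423% and 0.726%. Within the latter class, Il17a stood at 4.51 and 34.3 CPM in C1q-high macrophages and at 85.1 and 67.6 in migratory dendritic cells. In T or innate lymphoid cells it stood at 306 and 4688. Areg in these myeloid sub-classes was within 3 times the Il17a share in both libraries, so carry-over and expression cannot be told apart there.

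Keratinocytes carried the widest set of ligands. There 6 of the 10 members were at least 2-fold higher in TLR9agonist_LW (Areg, Ereg, Tgfa, Epgn, Nrg1 and Egfr), against 6.97% of all genes tested in keratinocytes, and 0 were lower, against 8.69%. Their log2 ratios were 1.66 for Areg (1.59 to 1.73), 1.67 for Ereg (1.42 to 1.93), 1.75 for Tgfa (1.53 to 1.97), 1.58 for Epgn (1.48 to 1.68), 1.57 for Nrg1 (1.36 to 1.78) and 1.15 for Egfr (0.99 to 1.30). The 5 ligands therefore had ratios of much the same size, with overlapping intervals. The median gene was furthest from 0 in this class, and without centring the ratios were 1.08 for Areg, 1.09 for Ereg, 1.17 for Tgfa, 1.0 for Epgn, 0.99 for Nrg1 and 0.57 for Egfr, and that of Erbb2 was -1.04. Keratinocytes were deeper in TLR9agonist_LW (median 23801 UMIs against 14079), and the class was made up differently. Wound-type cells were 90 of 552 keratinocytes in WT_LW and 364 of 1134 in TLR9agonist_LW, and sebaceous or lipid-making cells 70 and 9. The part of depth and of this make-up in the ratios of the class was not tested. Of 507 WT_LW keratinocytes thinned to 1500 UMIs, 361 had none of the 6 ligands Areg, Ereg, Hbegf, Tgfa, Epgn and Btc, 14 had 3 of them and 1 had 4 or more. Of 1131 TLR9agonist_LW keratinocytes, 471 had none, 57 had 3 of them and 13 had 4 or more. In mast cells, whose Areg is not read as expression, 121 of 132 and 205 of 256 had none, and 0 had 3 or more. In γδT17-like cells 368 of 515 and 614 of 1771 had none, and 0 had 3 or more. In macrophages or dendritic cells 1590 of 1787 and 1092 of 1370 had none, and 1 and 0 had 3.

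Epgn was nearly a keratinocyte gene. This class held 82.8% of its UMIs in WT_LW and 83.6% in TLR9agonist_LW, at 91.6 and 183 CPM, and no other class exceeded 19.6 CPM in either library. Its levels elsewhere followed those of Krt14, a basal keratinocyte keratin: in TLR9agonist_LW Epgn and Krt14 stood at 5.68% and 5.02% of their keratinocyte level in T or innate lymphoid cells, at 3.01% and 3.00% in macrophages or dendritic cells and at 2.72% and 2.22% in fibroblasts. Epgn outside keratinocytes is therefore read as background. Basal keratinocytes had the most Epgn, 217 and 330 CPM, a log2 ratio of 0.87 (0.69 to 1.07). Upper hair follicle keratinocytes had 16.4 and 206 CPM, a ratio of 4.05 (3.45 to 4.72), on 23 and 479 UMIs in 106 and 124 cells. The difference between the libraries was thus much larger in upper hair follicle than in basal keratinocytes, and the intervals of the ratios did not overlap.

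Areg in keratinocytes was highest, among named sub-classes, in the wound-type cells (named from Krt6a, Krt16 and related markers), with 344 and 611 CPM, a log2 ratio of 1.18 (1.06 to 1.30). One of the 4 wound-type sub-clusters (19 and 61 cells) was led by cornification genes such as Flg, Crct1 and Lce3f, although it also met the 6 wound-type markers. Without it the level was 369 and 655 CPM and the ratio 1.12 (1.0 to 1.25). The ratio was 0.63 (0.49 to 0.78) in the sub-cluster led by Ccl8, but 2.35, 2.46 and 2.14 in those led by Slc5a1, Gsta4 and Flg. The sub-cluster led by Ccl8 held 476 of the 613 wound-type Areg UMIs of WT_LW, in 26 cells. In WT_LW 1 wound-type cell held 151 UMIs. The unnamed keratinocytes stood at 371 and 409 CPM and held 42.7% of the class's Areg UMIs in WT_LW. It stood at 173 and 421 in basal cells, 60.7 and 203 in upper hair follicle cells and 41.1 and 273 in differentiated cells. The differentiated cells had the largest ratio, 3.24 (2.82 to 3.70), but their median depth was 4842.5 UMIs in WT_LW and 28692 in TLR9agonist_LW, and its part was not tested. The median wound-type keratinocyte had 0 Areg UMIs in WT_LW and 8 in TLR9agonist_LW. Thinned to 1500 UMIs, 11.8% (9.15 to 15) and 33.9% (31.1 to 36.7) of all keratinocytes had an Areg UMI, against 30.4% and 80.5% before thinning.

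Tgfa, at chr6:86195223-86275719 on the plus strand, was highest in keratinocytes, with 19.9 and 44.9 CPM, and these cells held 57.8% and 75.7% of its UMIs. Blood endothelial cells were its second source and the leading one outside keratinocytes and γδT17-like cells, at 13.2 and 24.9 CPM, on 65 and 105 UMIs, a log2 ratio of 1.40 (0.94 to 1.87). Tgfa there reached 66.0% and 55.5% of the keratinocyte level while Krt14 reached 1.08% and 3.10%. Every other class lay at or below 5.09 CPM in both libraries. Tgfa in fibroblasts rested on 2 and 34 UMIs, a ratio of 3.36 with an interval from 1.40 to 6.46.

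Ereg was highest in fibroblasts, at 20 (17.8 to 22.4) and 48.2 (45.8 to 50.8) CPM, a log2 ratio of 1.55 (1.37 to 1.73), followed by keratinocytes with 14.8 and 31.5. These 2 classes did not overlap in either library, and from the third class on neighbouring intervals overlapped. Fibroblasts held 52.4% and 54.6% of its UMIs. Deep fibroblasts (named from Clec3b, Pi16 and related markers) went from 8.77 to 71.7 CPM, a ratio of 3.38 (2.89 to 3.92), and upper fibroblasts (named from Crabp1, Prdm1 and related markers) from 51.1 to 91.3, a ratio of 1.05 (0.77 to 1.33). The deep cells were made up differently in the 2 libraries. A sub-cluster led by the cytokine genes Il6 and Cxcl5 was 35 of 185 deep cells in WT_LW and 121 of 372 in TLR9agonist_LW, with 13.9 and 187 CPM of Ereg, and it held 415 of the 482 deep Ereg UMIs in TLR9agonist_LW. Without it deep fibroblasts stood at 7.77 and 14.9 CPM, a ratio of 1.27 (0.59 to 1.98) whose interval overlapped that of upper fibroblasts. The remaining deep sub-clusters differed. That led by 1500015O10Rik stood at 11.6 and 11.6 CPM, a ratio of 0.32 (-0.49 to 1.15). That led by Pi16 stood at 2.20 and 20.6, on 3 and 34 UMIs, a ratio of 3.51 (1.84 to 5.86). In keratinocytes Ereg stood at 40.4 and 58.6 CPM in wound-type cells (32.2 and 49.0 without the sub-cluster led by Flg) and at 34.5 and 29.8 in basal cells, with intervals that overlapped in WT_LW.

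In fibroblasts, 5 of the 10 members passed 2-fold upward (Areg, Ereg, Tgfa, Epgn and Nrg1), against 7.71% of all genes tested in fibroblasts, and 0 passed downward, against 5.40%. Of these, Areg and Epgn are not read as expression, by the comparisons with Il17a and Krt14, and Tgfa rests on few UMIs, which leaves Ereg and Nrg1. Nrg1 stood at 27.5 and 49.8 CPM in fibroblasts, a log2 ratio of 1.13 (0.97 to 1.29) that was 0.85 without centring. The ratio was 2.15 (1.73 to 2.60) in deep fibroblasts, at 13.5 and 47.2 CPM, and 0.38 (0.10 to 0.66) in upper fibroblasts, at 56.8 and 64.0 CPM. For Nrg1 the sub-cluster led by Il6 stood at 58.9 and 60.8 CPM, and without it deep fibroblasts stood at 4.78 and 40.5, a ratio of 3.41 (2.67 to 4.25). The unnamed fibroblasts stood at 17.5 and 27.6 CPM for Ereg, and at 21.9 and 48.0 for Nrg1.

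Nrg1, at chr8:31814551-32884029 on the minus strand, was highest in the myeloid cells in WT_LW, whereas in TLR9agonist_LW their interval (49.5 to 57.3) overlapped that of fibroblasts (47.3 to 52.4). Macrophages or dendritic cells stood at 53.0 and 53.3 CPM, with a log2 ratio of 0.26 (0.12 to 0.40) that was 0.01 without centring and -0.28 where cells were classed by their own markers without clusters. They held 53.6% of Nrg1 UMIs in WT_LW but 18.9% in TLR9agonist_LW, where fibroblasts held 39.3% and keratinocytes 30.9%. Within the class the sub-classes differed. The unnamed myeloid cells, most of them in a sub-cluster with Nrg1 itself among its leading genes, stood at 99.2 (90.4 to 109) and 95.4 CPM (83.7 to 108) and held 469 of the 1030 myeloid Nrg1 UMIs in WT_LW and 241 of 717 in TLR9agonist_LW. Monocytes had the highest mean level of the named sub-classes outside γδT17-like cells and keratinocytes, on 74 and 99 UMIs. They stood at 74.1 and 114 CPM, and type 2 or monocyte-derived dendritic cells at 21.5 and 51.0, a ratio of 1.61 (1.16 to 2.07). C1q-high macrophages stood at 75.0 and 34.6 CPM, a ratio of -1.0 (-1.31 to -0.69). Ratios of both signs were thus found among the named sub-classes. In basal keratinocytes Nrg1 stood at 66.8 and 140 CPM, a ratio of 1.34 (1.01 to 1.68). In the macrophage or dendritic class as a whole, 2 of 8 members tested were at least 2-fold higher, Areg and Epgn, against 6.74% of all genes, and 0 were lower, against 2.81%. Epgn there is read as background.

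Hbegf lies apart from the chromosome 5 cluster, at chr18:36504927-36515805 on the minus strand. It was highest in Schwann cells, at 611 and 297 CPM, on 3747 and 994 UMIs, a log2 ratio of -0.86 (-0.96 to -0.75), although in TLR9agonist_LW the intervals of Schwann (279 to 317) and blood endothelial cells (277 to 310) overlapped. Keratinocytes with 205 and 215 CPM and blood endothelial cells with 128 and 293 came after, and changed places between the libraries. In blood endothelial cells the ratio was 1.67 (1.53 to 1.81), and in fibroblasts, at 67.6 and 30.6 CPM, it was -0.87 (-1.0 to -0.74). Hbegf therefore had ratios of both signs among its main classes. Schwann cells held 38.1% of Hbegf UMIs in WT_LW and 8.74% in TLR9agonist_LW, and keratinocytes 21.1% and 51.2%. Wound-type keratinocytes had 319 and 347 CPM, and 348 and 317 without the sub-cluster led by Flg, in which Hbegf stood at 41.2 and 445. It stood at 289 and 873 in the sub-cluster led by Slc5a1, a ratio of 1.48 (1.19 to 1.78). In that led by Ccl8 it stood at 403 and 281, a ratio of -0.31 (-0.48 to -0.14). In that led by Gsta4 it stood at 162 and 153, a ratio of 0.38 (-0.16 to 0.96). In lymphatic endothelial cells Hbegf was lower, on 24 and 8 UMIs, a ratio of -1.38 (-2.75 to -0.18). It was 1 of 2 members tested there, against 7.48% of all genes lower, and the other was Areg. Thinned to 1500 UMIs, 47.8% (44.2 to 51.4) and 28.7% (24.7 to 32.9) of Schwann cells had an Hbegf UMI (25 and 2 cells left out), against 3.05% and 2.82% of T or innate lymphoid cells, the class with the lowest mean level.

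Btc was highest in Schwann cells in both libraries. Schwann cells stood at 45.0 and 22.7 CPM, on 276 and 76 UMIs, a log2 ratio of -0.80 (-1.19 to -0.43), and the next class by mean level, keratinocytes, stood at 1.69 and 2.18. Schwann cells held 79.8% of Btc UMIs in WT_LW and 40.9% in TLR9agonist_LW, where keratinocytes held 31.7% (4.91% in WT_LW) and fibroblasts 18.3% (6.36%). Upper hair follicle keratinocytes had the highest Btc level among sub-classes, a mean of 7.23 CPM over both libraries. In Schwann cells 3 of 9 members tested were at least 2-fold higher (Areg, Epgn and Egfr), against 4.35% of all genes, and 0 were lower, against 3.85%. Egfr there rested on 9 and 14 UMIs. Areg was at 2.42% and 1.57% of the lymphoid level, where Il17a was at 3.46% and 1.09%, and Epgn is read as background, so no direction is read from these 3 in Schwann cells. The 4 members with a main source in Schwann cells (Hbegf, Btc, Erbb2 and Erbb3) were not among them.

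**Figure D3:**
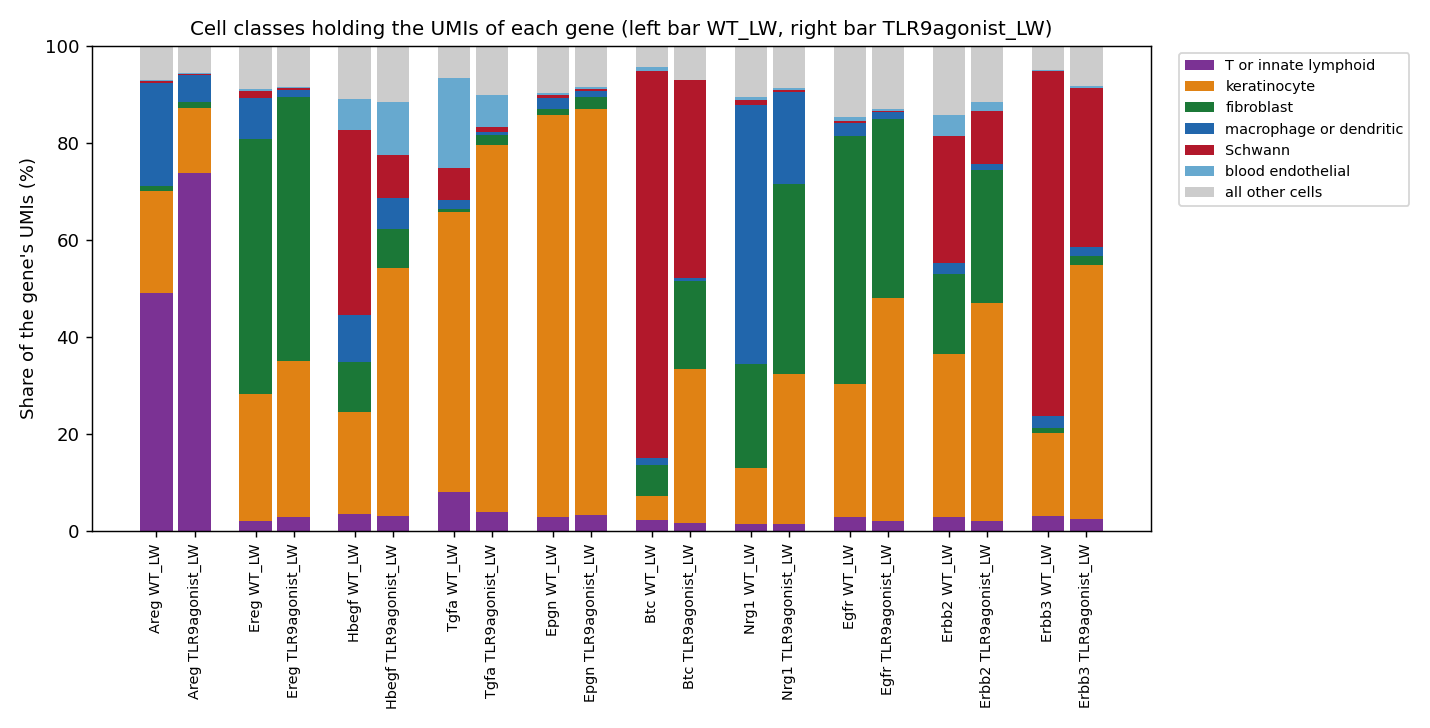
Share of each gene's UMIs held by each cell class (percent, stacked), left bar WT_LW and right bar TLR9agonist_LW. For Hbegf and Erbb3 the Schwann cell share is smaller in TLR9agonist_LW (8.74% and 32.7%) than in WT_LW (38.1% and 71.2%), and the keratinocyte share is larger.

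Among the receptors, Egfr, at chr11:16752203-16918158 on the plus strand, was shared by fibroblasts and keratinocytes. Fibroblasts led in WT_LW with 52.8 CPM against 41.9, and keratinocytes led in TLR9agonist_LW with 62.1 against 45.0. The log2 ratio was 1.15 in keratinocytes and 0.05 (-0.08 to 0.18) in fibroblasts, so the ratio differed between the 2 main Egfr classes. Basal keratinocytes stood at 35.3 and 87.2 CPM, a ratio of 1.58 (1.13 to 2.05), and wound-type keratinocytes at 43.2 and 74.2, a ratio of 1.13 (0.79 to 1.49). Deep fibroblasts, the leading named Egfr source outside γδT17-like cells and keratinocytes, stood at 66.1 and 84.7 CPM. T or innate lymphoid cells stood at 2.49 and 3.73, and blood endothelial, Schwann and macrophage or dendritic cells at no more than 4.19 in either library.

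Erbb3 and Erbb2, the pair that receives neuregulins, were both highest in Schwann cells. Erbb3 lies at chr10:128567523-128589652 on the minus strand and Erbb2 at chr11:98412470-98437716 on the plus strand. Erbb3 stood there at 334 and 262 CPM, on 2047 and 877 UMIs, a log2 ratio of -0.16 (-0.28 to -0.05), and Erbb2 at 47.6 and 35.3 CPM, a ratio of -0.25 (-0.57 to 0.06). Keratinocytes came next, with 49.1 and 52.1 for Erbb3 and 37.2 and 18.1 for Erbb2. The keratinocyte ratio was 0.67 (0.52 to 0.82) for Erbb3 and -0.46 (-0.66 to -0.26) for Erbb2. In upper hair follicle keratinocytes Erbb2 was lower, from 49.3 to 17.2 CPM, a ratio of -1.11 (-1.71 to -0.53). It was the 1 member of 10 called lower there, against 7.37% of all genes, beside 5 called higher, against 6.99%. Erbb2 was also lower in pericytes or smooth muscle cells, from 14.6 to 4.85 CPM on 79 and 20 UMIs, a ratio of -1.15 (-1.93 to -0.42), as 1 of 6 members tested, against 5.26% of all genes. Thinned to 1500 UMIs, 39.8% and 33.6% of Schwann cells had an Erbb3 UMI, against 0.646% and 0.484% of T or innate lymphoid cells. Schwann cells held 71.2% of Erbb3 UMIs in WT_LW and 32.7% in TLR9agonist_LW, and keratinocytes held 17.2% and 52.4%.

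T or innate lymphoid cells were tested for 9 members, of which 5 were at least 2-fold higher (Areg, Ereg, Tgfa, Epgn and Nrg1), against 8.10% of all genes, and 0 were lower, against 6.11%. Apart from Areg these stood at no more than 10.4 CPM in either library, and Epgn is read as background. Tgfa stood at 7.76% and 7.24% of its keratinocyte level, beside Krt14 at 1.48% and 5.02%. Ereg and Nrg1 stood at no more than 3.89 CPM. Whether Tgfa, Ereg and Nrg1 here were carried over from other classes was not tested. In blood endothelial cells 5 of 8 members tested were higher (Areg, Hbegf, Tgfa, Epgn and Erbb3), against 8.85% of all genes, and 0 were lower, against 5.89%. Hbegf and Tgfa were the 2 of these not at background or resting on fewer than 20 UMIs in a library.

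**Figure D4:**
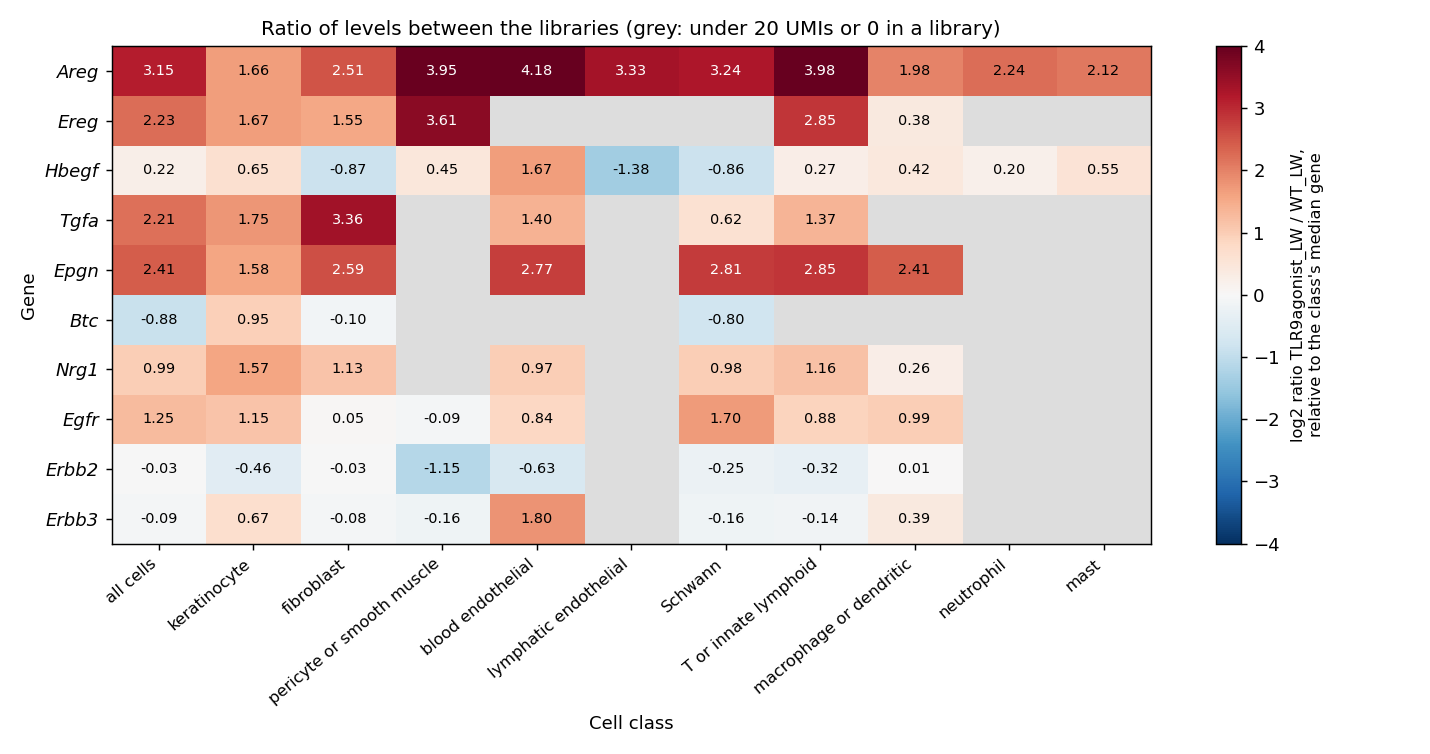
Log2 ratio of each gene's level, TLR9agonist_LW over WT_LW, relative to the median gene of the class, over all cells and in 10 classes; grey cells had under 20 UMIs or 0 in a library. Areg is positive in every class tested, from 1.66 in keratinocytes to 4.18 in blood endothelial cells, and Hbegf has values of both signs. By the comparison with Il17a in the text, Areg is not read as expression in blood or lymphatic endothelial cells, mast cells, pericytes or smooth muscle cells and fibroblasts. No direction is read from it in Schwann cells.

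The differences over all cells were also split into class shares and class levels, without centring on the median gene. For Areg the log2 difference of 2.77 was 0.06 when the class shares of TLR9agonist_LW were given the levels of WT_LW, and 2.98 with the reverse. Over 31 finer classes, which separate γδT17-like cells from other lymphocytes, the same values were 0.53 and 2.05. Areg thus differed mainly in level within classes, and part of what looks like level in the broad T or innate lymphoid class was the larger share of γδT17-like cells. For Egfr the difference of 0.86 was 0.61 from shares alone and 0.23 from levels alone, and for Epgn the difference of 2.03 was 0.92 and 1.22. For Ereg the difference of 1.84 was 0.60 and 1.27, and for Tgfa 1.83 was 0.59 and 1.20. For Btc the value of -1.27 was -0.72 and -0.86, and for Erbb3 -0.47 was -0.40 and -0.23. Erbb2 had parts of opposite sign, 0.33 from shares and -0.66 from levels.

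**Figure D5:**
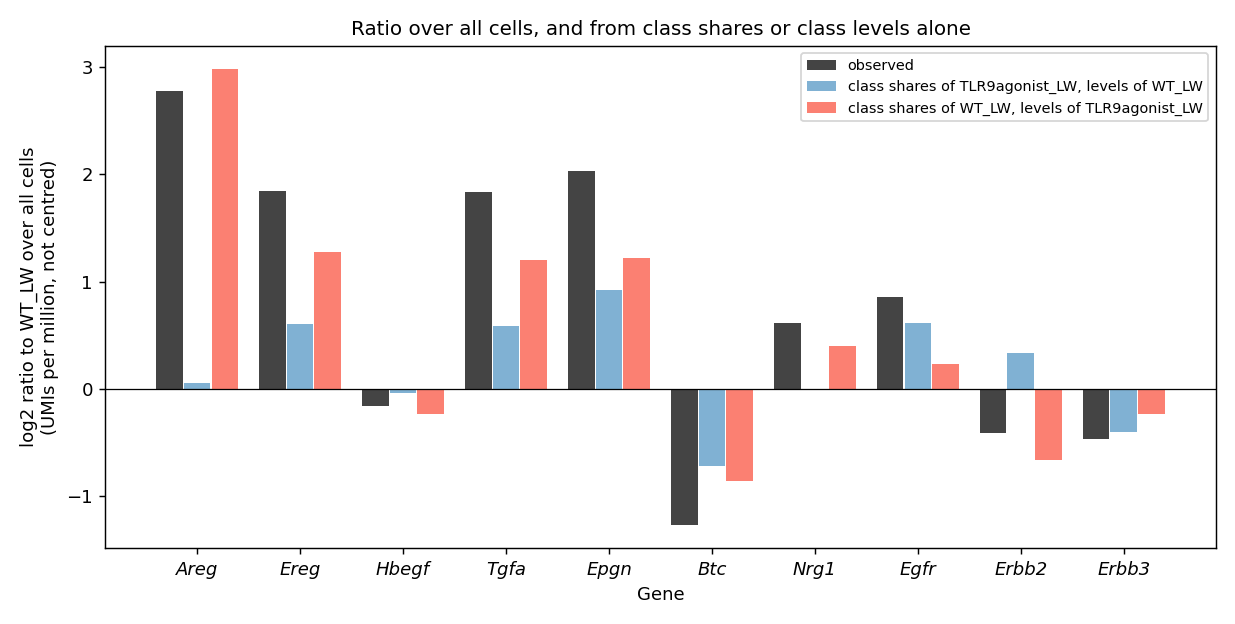
Log2 ratio over all cells of each gene's CPM, TLR9agonist_LW over WT_LW, not centred (black), beside the ratio from class shares alone (blue) and from class levels alone (red), over the broad classes. Levels alone account for more than shares alone for Areg (2.98 against 0.06), and shares alone for more for Egfr (0.61 against 0.23).

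Genes whose level followed each member across 25 classes in 2 libraries (50 points, which share library, depth and composition within a library) were found by Pearson's r among 13488 genes. The nearest were Aldoa, Gapdh and Fam110a for Areg (r of 0.72, 0.71 and 0.70), and Ptges, F3 and Fosl1 for Ereg (0.84, 0.79 and 0.78). For Epgn they were Ovol1, Krt14 and Krt6a (0.94, 0.94 and 0.93), for Tgfa Shroom3, Cecr2 and Samd12 (0.84, 0.83 and 0.83), and for Nrg1 Scpep1, Ctsh and Tcp11l1 (0.81, 0.75 and 0.71). For Hbegf they were Abcd3, Plpp2 and Mb21d2 (0.81, 0.77 and 0.77), and for Btc Chd5, Shank1 and Gm42788 (0.85, 0.82 and 0.81). Among the receptors they were Tpm2, Enah and Egfros for Egfr (0.83 each), Efnb1, Emp2 and Kif21a for Erbb2 (0.91, 0.90 and 0.87), and Pou3f1, Myh14 and Slitrk6 for Erbb3 (0.89, 0.87 and 0.86). Egfros neighbours Egfr, and its counts are uncertain for that reason. Areg had the weakest nearest genes of the family and Epgn the closest. Between members, the highest values were 0.76 for Hbegf with Erbb2 and 0.76 for Tgfa with Epgn, and the lowest was -0.36 for Areg with Erbb2.

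A list of 40 other genes of the pathway (further ligands, the receptor Erbb4, sheddases, adaptors, feedback inhibitors and early target genes) moved little. In keratinocytes 3 of 37 tested were at least 2-fold higher and 3 lower, or 8.11% each, against 6.97% and 8.69% of all genes, with a median log2 ratio of 0.10. Without centring 0 were higher and 7 lower, with no share of all genes counted beside them. The higher ones were Errfi1, a feedback inhibitor that binds EGFR, from 81.3 to 123 CPM (1.18), Fosl1, an AP-1 subunit induced by ERK, from 75.2 to 124 (1.30), and Ier3, an early response gene, from 221 to 297 (1.0). The lower ones were Lrig1, which lowers EGFR protein, from 33.1 to 8.03 CPM (-1.46), Spry4, an inhibitor of RAS signalling, on 20 and 9 UMIs (-1.99), and Nrg4, a neuregulin, on 39 and 11 UMIs (-2.67). With centring, the shares of the list in keratinocytes were near those of all genes.

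In T or innate lymphoid cells 3 of 35 list genes were higher and 2 lower (8.57% and 5.71%, against 8.10% and 6.11% of all genes), with a median of 0.06. Fos, an AP-1 subunit, went from 618 to 218 CPM (-1.20) and Spred1, a RAS inhibitor, from 17.9 to 6.50 (-1.16), whereas Spry1 (13.1 to 22.4, 1.07), Fosl1 (3.98 to 8.52, 1.40) and Ier3 (63.1 to 103, 1.01) were higher. In fibroblasts 2 of 36 were higher (5.56%, against 7.71% of all genes) and 0 lower (against 5.40%), with a median of 0.12: Lrig3 from 27.1 to 45.2 CPM (1.01) and Myc, a growth regulator, from 45.4 to 77.0 (1.04). In macrophages or dendritic cells 4 of 38 were higher (10.5%, against 6.74% of all genes) and 0 lower (against 2.81%), with a median of 0.11. Errfi1 stood there at 146 and 248 CPM (1.01) and Spry2, a RAS inhibitor, at 2.83 and 5.05 (1.09). Egf, on 23 and 29 UMIs (1.12), and Nrg2, on 14 and 19 UMIs (1.23), rested on few molecules. Over all cells 4 of 38 were higher and 1 was lower (10.5% and 2.63%, against 8.03% and 5.35% of all genes), with a median of 0.10.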

How the data were processed

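The labels describe 10x Genomics single-cell libraries. The authors deposited filtered matrices of raw UMI counts per gene and cell, written by Cell Ranger 4.0.0 per the file headers. The submitters' processing notes name Cell Ranger, fastp, Seurat and the build mm9, whereas 27645 of the 27998 gene identifiers matched GENCODE M21 on GRCm38, which was used for positions. How strand was counted is not given in the sources used here.

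Cells with at least 500 UMIs and 300 genes and at most 15% mitochondrial UMIs were kept. Predicted doublets (0.8% per 1000 cells; 1048 in WT_LW and 1395 in TLR9agonist_LW) were removed by Scrublet score. With Python 3.11.15, numpy 2.4.6, scipy 1.17.1, scanpy 1.11.5 and leidenalg 0.10.2, 2000 variable genes, 30 principal components, a Harmony-type correction for library and Leiden clustering at resolution 1 gave clusters. They were named where at least 3 markers were met, and subdivided the same way. Sub-clusters led by another class's markers (715 and 711 cells) and a mast-like cluster of 0 and 19 cells, with a median UMI count over 5 times that of its class, were set aside. A whole cluster of 533 and 535 cells stayed unnamed, as did sub-clusters within classes. A further gate on each cell's own markers had been planned, but it removed 49.6% of T or innate lymphoid cells in TLR9agonist_LW and 22.4% in WT_LW, so ungated clusters became the main values and the gate an alternative. That choice and the rules for setting sub-clusters aside were made after seeing the data.

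UMIs were summed per class and library. Intervals are exact (Poisson for levels, binomial for shares, and binomial given the total for ratios). The counting script was tested on simulated data. The text names all 10 members, pathway list genes past 2-fold (at most 6 per class) and the 3 genes most like each member by log2(CPM + 1), among genes with at least 200 UMIs. The members and lists were chosen with earlier results of these data known. Whether the pooled mice differed could not be measured.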

Additional observations from a re-analysis of the deposited data

How the results depend on the processing

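No paired analysis was possible because each group had 1 library. Without centring on the median gene, 1 member (Btc) was at least 2-fold lower over all cells, as it also was with equal weight per cell (1), and 4 in place of 5 were higher. The main class of a member was the class with its highest mean CPM over both libraries, so the library where it is high helps to pick that class. For Egfr this was keratinocytes, which led in TLR9agonist_LW (62.1 against 45.0 CPM), whereas fibroblasts led in WT_LW (52.8 against 41.9). In each member's main class, without centring, 3 in place of 5 were higher and 1 (Hbegf, -1.04) was lower. With the per-cell marker gate alone 4 were higher, since Egfr stood at 0.96, and over the alternatives Egfr ranged from 0.57 to 1.44. Shares of all genes were counted only per class and with centring. None stands beside the counts over main classes or the counts without centring, of members or of pathway genes, so these are not read further. Among pathway genes, without centring 0 were higher and 7 lower in keratinocytes, and 1 higher and 6 lower in T or innate lymphoid cells. In fibroblasts 0 were higher and 3 lower, and in macrophages or dendritic cells 0 were higher and 1 lower. With at least 100 UMIs per gene, 1 was lower in keratinocytes and 2 were higher in macrophages or dendritic cells, since fewer genes were tested. Areg in its main class ranged from 3.18 (per-cell marker gate alone) to 3.98 over the alternatives, Nrg1 from -0.28 (the same gate) to 0.27, and Ereg from 1.27 to 1.69. The main class was the same for 10 members under all settings but the stricter cell filter, where Egfr was higher in fibroblasts (49.1 CPM) than in keratinocytes (48.7). With set-aside sub-clusters returned to their class, an alternative chosen after seeing the data, the number of members higher in their main class was 5. Without the sub-cluster led by Il6, Ereg in deep fibroblasts was 1.27 in place of 3.38 and Nrg1 3.41 in place of 2.15, and without the one led by Flg, Hbegf in wound-type keratinocytes was 0.16 in place of 0.47; both were chosen after seeing the data. Without cells holding at least 2 T cell markers, also chosen after seeing the data, Areg was 1.57 in keratinocytes and 1.74 in macrophages or dendritic cells. With 1 pooled library per group, variation between mice is unknown, and genes under 20 UMIs in a class gave no ratio.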
